A study of Rattus norvegicus with 10 samples.

Results

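The genes described here carry amino acids into the cell or make serine, glycine, asparagine and folate-bound carbon units. There were 10 of them, chosen by name, among 14217 genes that the array annotation names. They comprise 5 transporters (Slc7a5, Slc3a2, Slc38a2, Slc1a5 and Slc7a1) and 5 enzymes (Asns, Psat1, Phgdh, Shmt2 and Mthfd2). All 10 had at least 1 probe set, the array's unit of measurement for a transcript, and 9 had only 1. Slc7a1 had 3, so that 12 probe sets were read, of which 11 passed the filter on low values, and every gene was tested.

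Affymetrix arrays were used to measure RNA in cardiomyocytes taken from the ventricles of Lewis rats aged 0 to 3 days and grown in primary culture. After recovery, cultures were kept for 3 days without stimulation (nonpulsed, n = 3 arrays), with electric pulses of 1 Hz and 2 V/cm (pulsed, n = 4), or with these pulses and 10 µmol/L blebbistatin, an inhibitor of myosin II that stops contraction (n = 3). The arrays came from 4 culture series, a name used here for arrays with the same date in their titles. Series 1 lacked blebbistatin, series 4 lacked a nonpulsed culture, and series 2 and 3 held every group. Equal parts of RNA from a pair of experiments were mixed for each array, and no unstimulated culture received blebbistatin. All 12 heart muscle markers were measured, with a mean log2 value of 12.31 to 13.06 over the arrays. Markers listed for fibroblasts (9.70 to 11.61) and for smooth muscle or pericytes (8.75 to 10.19) were measured as well. RNA of such markers was thus present, but which cells it came from and their share were not measured. Levels are log2 values, on which a difference of 1 is a factor of 2, and values of different genes are not comparable because each probe set has its own brightness.

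Heart muscle cells take up large neutral amino acids such as leucine through LAT1, the product of Slc7a5, which works only as a dimer with the CD98 heavy chain, the product of Slc3a2. Phgdh, Psat1 and Psph catalyse the steps from a glycolytic intermediate to serine, and in mitochondria Shmt2 and Mthfd2 pass a carbon of serine to folate, which feeds purine synthesis. The transcription factor ATF4 is known to raise most of these genes when amino acids are scarce or proteins misfold in the endoplasmic reticulum, through a composite C/EBP-ATF response element, and MYC is known to raise some of them through E-boxes.

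The sequences before the start sites of 4 members are shown because the results turn on Slc7a5, Psat1 and Phgdh, and because Slc7a5 and Slc7a1 hold a motif searched for. They are the 250 bases before the start given by RefSeq (build GRCr8), on the strand of the gene, 5′ to 3′, with motif matches in capitals. The Slc7a5 window is chr19:66872413-66872662 on the minus strand and its capitals mark an E-box that begins 179 bases before the start. The Slc7a1 window is chr12:11664238-11664487 on the plus strand and its capitals mark the core of the C/EBP-ATF element, 30 bases before the start. The windows of Psat1, chr1:222645409-222645658, and Phgdh, chr2:188624790-188625039, lie on the minus strand.
Slc7a5: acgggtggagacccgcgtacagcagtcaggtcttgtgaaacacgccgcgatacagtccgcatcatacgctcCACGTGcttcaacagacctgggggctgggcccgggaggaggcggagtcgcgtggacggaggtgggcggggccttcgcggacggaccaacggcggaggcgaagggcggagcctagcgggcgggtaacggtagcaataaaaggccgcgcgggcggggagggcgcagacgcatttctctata
Slc7a1: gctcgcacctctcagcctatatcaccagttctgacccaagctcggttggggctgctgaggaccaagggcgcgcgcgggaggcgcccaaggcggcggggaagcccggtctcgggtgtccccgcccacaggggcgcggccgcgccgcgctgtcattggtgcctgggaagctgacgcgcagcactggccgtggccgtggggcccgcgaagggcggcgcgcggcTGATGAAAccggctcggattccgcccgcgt
Psat1: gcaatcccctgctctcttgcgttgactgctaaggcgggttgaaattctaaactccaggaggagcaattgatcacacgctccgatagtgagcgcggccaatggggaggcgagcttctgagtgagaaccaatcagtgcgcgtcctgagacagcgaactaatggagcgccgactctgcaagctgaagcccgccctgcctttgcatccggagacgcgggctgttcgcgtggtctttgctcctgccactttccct
Phgdh: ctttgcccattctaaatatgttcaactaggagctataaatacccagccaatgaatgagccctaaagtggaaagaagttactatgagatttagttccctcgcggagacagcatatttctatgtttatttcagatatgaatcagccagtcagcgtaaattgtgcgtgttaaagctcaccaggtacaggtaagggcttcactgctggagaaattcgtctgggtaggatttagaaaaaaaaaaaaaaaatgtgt

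The motifs were searched on both strands as TGATGNAA for the C/EBP-ATF core and CACGTG for the E-box, which do not overlap each other in these windows. The table held windows for 9 of the 10 members. The core was found before 1 of them (Slc7a1) and in 3.40% of 33469 windows of the same length. The E-box was found before 1 (Slc7a5) and in 5.59% of all windows. Psat1 and Phgdh, whose levels moved together on these arrays, held neither, and their windows differed in base composition, with a GC content of 58.0% before Psat1 and 38.8% before Phgdh against a median of 51.2% over all windows. A match is a description of letters and not of binding, and a missing match says only that the letters are not in this window.

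None of the 10 genes differed between treatments past the threshold used here, a Benjamini-Hochberg adjusted p of 0.05 over 18393 rows (limma, culture series as a block). With pulsing, 9 of the 10 had a negative change, where 62% of all rows had a positive one. The members' median log2 change was -0.21, against 0.05 over all rows tested. Without series 1 that median was -0.05. With blebbistatin added to pulsing the median was 0.07, with 7 positive and 3 negative, against 0.02 over all rows, of which 55.7% were positive. For every member and comparison the 95% interval of the fitted change lay within a factor of 2 in either direction, from -0.95 to 0.92 on the log2 scale. The interval left out 0 for 1 member with blebbistatin against pulsed (Shmt2) and for 1 with blebbistatin against nonpulsed (Psat1), and for none with pulsing. Of the 10, 1 gene, Slc7a5, differed between culture series past the threshold, as did 7.97% of all rows, and this call held in 5 of 20 alternative analyses.

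**Figure D1:**
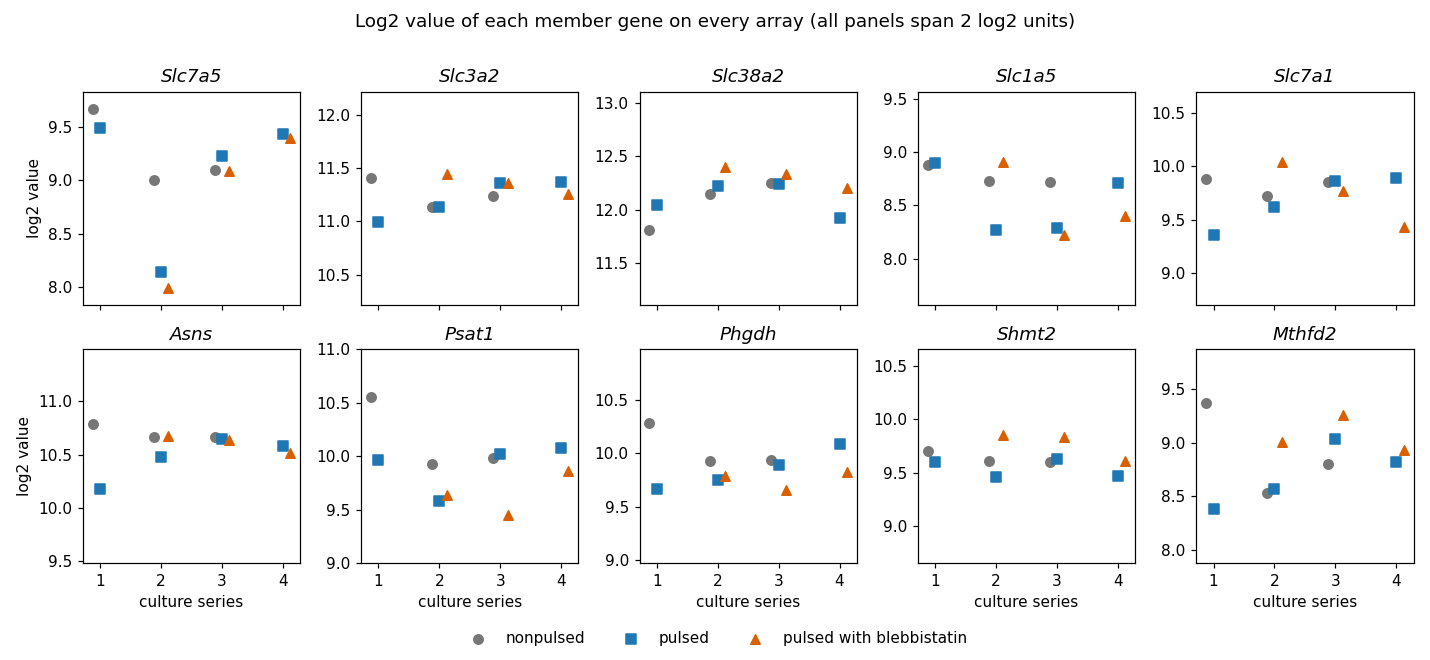
Log2 value of each of the 10 genes (vertical axis, 2 log2 units in every panel) by culture series (horizontal axis), with 1 point per array for nonpulsed (grey circles), pulsed (blue squares) and pulsed with blebbistatin (orange triangles). Slc7a5 spans 7.99 to 9.67 with its lowest points in series 2, and Shmt2 spans only 0.39.

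Slc7a5, the leucine carrier LAT1, had log2 values of 9.67, 9.0 and 9.10 in the nonpulsed arrays of series 1, 2 and 3. They were 9.49, 8.14, 9.23 and 9.43 in the pulsed arrays of series 1 to 4. With blebbistatin they were 7.99, 9.09 and 9.40 in series 2, 3 and 4. The ranges of all groups overlapped, and the pulsed arrays of series 2, with and without blebbistatin, were the lowest. The fitted change with pulsing was -0.32 (SE 0.19, 95% interval -0.77 to 0.13, limma adjusted p = 0.639), with within-series differences of -0.18, -0.86 and 0.13 for series 1, 2 and 3. Blebbistatin added -0.13 (SE 0.19, adjusted p = 0.831).

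Its partner Slc3a2, the CD98 heavy chain, was much steadier. Slc3a2 had log2 values of 11.41, 11.13 and 11.24 in nonpulsed arrays, 10.99, 11.13, 11.36 and 11.37 in pulsed arrays and 11.44, 11.36 and 11.26 with blebbistatin. The groups overlapped, and the range over all 10 arrays was 0.45, against 1.68 for Slc7a5 and a median of 0.719 over all rows tested. The changes of Slc3a2 were -0.06 with pulsing (95% interval -0.38 to 0.26) and 0.12 with blebbistatin (95% interval -0.20 to 0.44).

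Slc38a2, which encodes SNAT2, a sodium-coupled carrier of small neutral amino acids, had the opposite sign to most members with pulsing. Its log2 values were 11.81, 12.15 and 12.25 in nonpulsed, 12.04, 12.22, 12.24 and 11.92 in pulsed, and 12.40, 12.33 and 12.20 in blebbistatin arrays. The blebbistatin arrays lay at the upper end, overlapping the pulsed range, and each was above the pulsed array of its series. The fitted change was 0.07 with pulsing (SE 0.10), 0.16 with blebbistatin against pulsed (SE 0.10, adjusted p = 0.562) and 0.23 with blebbistatin against nonpulsed (SE 0.11, adjusted p = 0.253).

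Slc1a5, which encodes the glutamine carrier ASCT2, had log2 values of 8.88, 8.73 and 8.72 in nonpulsed, 8.90, 8.27, 8.29 and 8.71 in pulsed, and 8.91, 8.22 and 8.40 in blebbistatin arrays. It was lower in pulsed than in nonpulsed arrays in series 2 and 3 (-0.45 and -0.43) and not in series 1 (0.01), with a fitted change of -0.23 (SE 0.19, adjusted p = 0.720). With blebbistatin the series disagreed, at 0.64, -0.06 and -0.31 in series 2, 3 and 4.

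Slc7a1, which encodes CAT1, a carrier of arginine and lysine, showed the same disagreement. Its log2 values were 9.88, 9.72 and 9.85 in nonpulsed, 9.36, 9.62, 9.86 and 9.89 in pulsed, and 10.04, 9.77 and 9.43 in blebbistatin arrays, so that the groups overlapped. Blebbistatin against pulsed was 0.42, -0.09 and -0.46 in series 2, 3 and 4, and the fitted change was 0.02 (SE 0.18). A further Slc7a1 probe set gave -0.01 with pulsing and -0.07 with blebbistatin (SE 0.15), with the same order of series (0.29, -0.02 and -0.55). A dim Slc7a1 probe set, with values of 4.34 to 5.46, did not pass the filter on low values.

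Asns, asparagine synthetase and a classical ATF4 target, had log2 values of 10.79, 10.66 and 10.66 in nonpulsed arrays and 10.18, 10.48, 10.65 and 10.58 in pulsed arrays. Every pulsed array was below every nonpulsed array, by as little as the difference between 10.65 and 10.66. This was the 1 member whose pulsed and nonpulsed ranges did not overlap, which held for 7.34% of all rows. The fitted change of Asns was -0.24 (SE 0.13, 95% interval -0.54 to 0.07, adjusted p = 0.607), and the differences were -0.61, -0.18 and 0.00 in series 1, 2 and 3. With blebbistatin its log2 values were 10.67, 10.64 and 10.51, between the lowest pulsed and the highest nonpulsed array, with a fitted change against pulsed of 0.10 (SE 0.13).

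Phgdh, the dehydrogenase that opens serine synthesis, had log2 values of 10.29, 9.93 and 9.94 in nonpulsed, 9.67, 9.75, 9.89 and 10.09 in pulsed, and 9.79, 9.66 and 9.83 in blebbistatin arrays. The 3 blebbistatin arrays were all below the 3 nonpulsed arrays. The fitted change of Phgdh was -0.26 with pulsing (SE 0.13, adjusted p = 0.591) and -0.34 with pulsing and blebbistatin against nonpulsed (SE 0.15, 95% interval -0.69 to 0.01, adjusted p = 0.227).

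Psat1, the aminotransferase that follows Phgdh, had log2 values of 10.55, 9.93 and 9.98 in nonpulsed, 9.96, 9.58, 10.02 and 10.08 in pulsed, and 9.64, 9.45 and 9.86 in blebbistatin arrays. Again all blebbistatin arrays were below all nonpulsed arrays. Ranges that did not overlap were found for 2 of 10 members in this comparison (Phgdh and Psat1), against 24.8% of all rows. The fitted change of Psat1 against nonpulsed was -0.49 with pulsing and blebbistatin, a 1.41-fold lower value (SE 0.16, 95% interval -0.87 to -0.11, limma adjusted p = 0.147), and -0.30 with pulsing alone (SE 0.14, adjusted p = 0.579). Psat1 was the 1 member with an unadjusted p under 0.05 against nonpulsed cultures, where 22.6% of all rows had one. It also had an unadjusted p of 0.0499 for any difference between the 3 groups (adjusted p = 0.300), where 16.6% of all rows were under 0.05.

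Shmt2, the mitochondrial hydroxymethyltransferase that takes a carbon from serine, lay in a narrow band. Its log2 values were 9.70, 9.61 and 9.60 in nonpulsed, 9.60, 9.46, 9.63 and 9.47 in pulsed, and 9.85, 9.83 and 9.61 in blebbistatin arrays. In each of series 2, 3 and 4 the blebbistatin array was above its pulsed partner, by 0.39, 0.21 and 0.13, although the ranges overlapped. The fitted change was 0.25, a 1.19-fold higher value (SE 0.09, 95% interval 0.04 to 0.46, limma adjusted p = 0.369). Shmt2 was the 1 member with an unadjusted p under 0.05 in this comparison, where 11.8% of all rows had one.

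Mthfd2, the mitochondrial enzyme that acts on the folate unit Shmt2 makes, had log2 values of 9.37, 8.53 and 8.80 in nonpulsed, 8.38, 8.57, 9.04 and 8.82 in pulsed, and 9.01, 9.26 and 8.93 in blebbistatin arrays. It too was above its pulsed partner in all 3 series with blebbistatin, by 0.45, 0.22 and 0.11, with overlapping ranges. The fitted change of Mthfd2 was 0.39 (SE 0.22, 95% interval -0.13 to 0.92, adjusted p = 0.530). With pulsing it was -0.19 (SE 0.22), from differences of -0.99, 0.03 and 0.24 in series 1, 2 and 3. Without series 1 it was 0.17. The signs of Slc3a2 and Slc7a1 with pulsing turned in the same way, to 0.10 and 0.06.

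**Figure D2:**
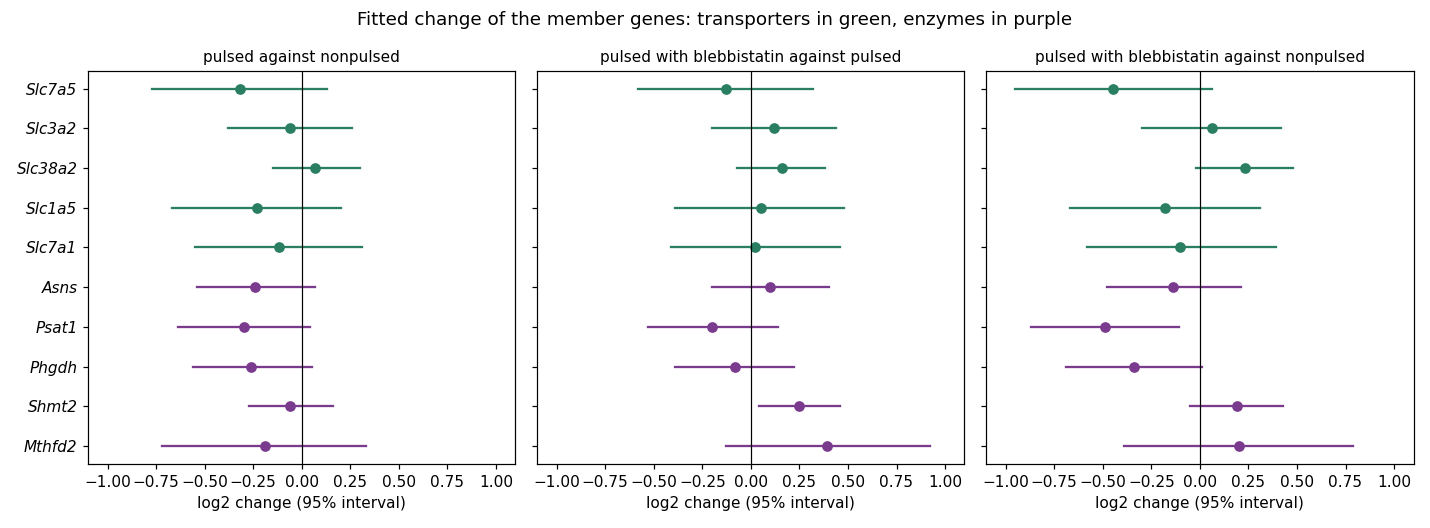
Fitted log2 change (horizontal axis, points) with its 95% interval (lines) for the 10 genes in the 3 comparisons, transporters in green and enzymes in purple. In the left panel 9 of 10 points lie below 0, in the middle panel Shmt2 alone has an interval that leaves out 0, and in the right panel Psat1 alone does.

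Pulsing against no pulsing addressed the response to pacing. Over the members the adjusted p ranged from 0.579 to 0.916, 0 of 10 passed, and 0 had an unadjusted p under 0.05, against 0% of all rows that passed and 9.10% (1674 of 18393) with an unadjusted p under 0.05. In series 1 the median difference of the members was -0.47 with 2 of 10 higher, against -0.16 with 3 higher in series 2 and 0.02 with 6 higher in series 3, while the medians of all rows were 0.11, 0.03 and 0.03. Without series 1 the fitted changes of Asns, Phgdh and Psat1 were -0.07, -0.09 and -0.16. That of Slc7a5 was -0.39 without series 1, -0.03 without series 2, -0.02 without the nonpulsed array of series 2, and -0.56 without series 3 or its nonpulsed array. In series 1 the heart muscle markers had a median difference of 0.77 and markers of dividing cells one of -0.56, and in series 3 these were 0.00 and 0.36. The summed linear signal of the 12 heart muscle markers was 71500 to 96700 in nonpulsed and 88700 to 108000 in pulsed arrays, and none was at the array's lowest level. The log2 difference between 3′ and 5′ control probe sets is a sign of RNA integrity. For beta-actin it was 0.45, 0.68 and 0.63 in the nonpulsed arrays of series 1, 2 and 3, and 0.60 to 0.72 in pulsed arrays. For GAPDH it was 0.06 to 0.17 in both groups. The parts of RNA integrity and of the cell makeup in the members' changes were not tested. In such bulk RNA, fewer cells of a type and less of an RNA per cell cannot be told apart.

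**Figure D3:**
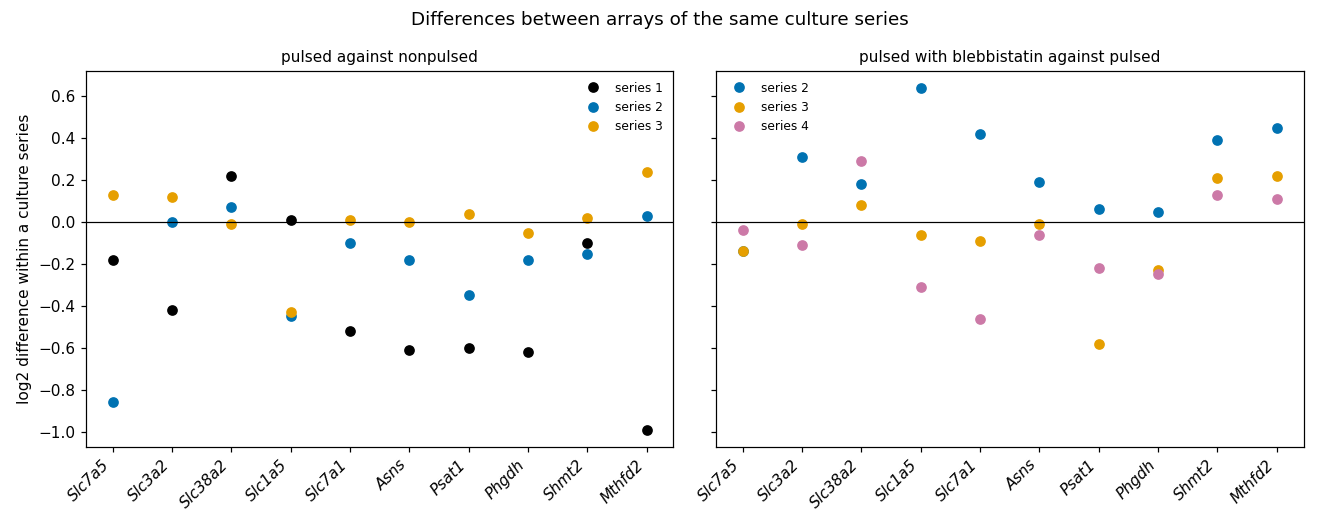
Log2 difference between 2 arrays of the same culture series (vertical axis) for each of the 10 genes, for pulsed minus nonpulsed (left) and pulsed with blebbistatin minus pulsed (right), with series by colour. On the left the series 1 points reach -0.99 for Mthfd2 while series 3 stays between -0.43 and 0.24, and on the right all points of Slc38a2, Shmt2 and Mthfd2 are above 0 and all of Slc7a5 below it.

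Blebbistatin against pulsing alone addressed what changes when paced cells do not contract, and effects of the drug other than on contraction cannot be told apart from it. None of the 10 members passed, against 0.0163% of all rows, and none had ranges that did not overlap, against 10.0% of all rows. The signs of the enzymes differed, with Psat1 at -0.20 (SE 0.14), Phgdh at -0.08 (SE 0.13), Asns at 0.10, Shmt2 at 0.25 and Mthfd2 at 0.39. In series 2 Psat1 and Phgdh were positive, at 0.06 and 0.05. The signs did not divide by pathway. Outside the members, the serine enzyme Psph was at 0.14 (SE 0.14) and the mitochondrial folate enzyme Aldh1l2 at -0.38 (SE 0.14). By series 2, 3 and 4 the members' median was 0.25, -0.04 and -0.09, with 9, 3 and 3 of 10 higher. The medians of all rows were 0.04, 0.01 and 0.05 in these series. Signs near 0 turned with single arrays left out, to -0.21 for Slc1a5, -0.20 for Slc7a1 and 0.03 for Slc7a5 without the blebbistatin array of series 2. Markers of dividing cells had a median change of -0.57 with all 17 tested negative, and medians of -0.18, -1.33 and -0.38 in series 2, 3 and 4. Markers of smooth muscle and pericytes had a median of -0.66 with all 11 negative. The median was -0.28 for fibroblast markers (10 of 12 negative) and -0.18 for macrophage and leukocyte markers (9 of 11 negative). It was -0.13 for endothelial markers (5 of 7 negative) and 0.00 for heart muscle markers (6 of 12 negative). Of all rows 55.7% were positive. The 2 positive macrophage and leukocyte markers were Cd74 at 1.97 (SE 0.38, limma adjusted p = 0.197) and Aif1 at 0.03. In each list 0 passed. The summed signal of the dividing cell markers was 7250 to 9700 in pulsed and 4750 to 6700 in blebbistatin arrays. That of the smooth muscle and pericyte markers was 20500 to 23200 and 13300 to 16500. No dividing cell, smooth muscle or pericyte marker was at the lowest level. The log2 difference between the 3′ and 5′ control probe sets of GAPDH, a sign of RNA integrity, was 0.06 to 0.17 in pulsed and 0.19 to 0.22 in blebbistatin arrays. That of beta-actin overlapped, at 0.60 to 0.72 and 0.69 to 0.77. The part of these values in the members' changes was not tested.

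Pulsing with blebbistatin against no pulsing shares its arrays with the comparisons above. In it 0 of 10 members passed, against 0.343% of all rows, with adjusted p of 0.147 to 0.836. The members' median was -0.12, against 0.07 over all rows, and it turned to 0.06 when only these groups in series 2 and 3 were fitted. Psat1, Slc7a5 and Phgdh had the changes furthest below 0 (-0.49, -0.45 and -0.34), and Slc38a2, Mthfd2 and Shmt2 those furthest above it (0.23, 0.20 and 0.19). For Slc7a5 the differences were -1.01 in series 2 and -0.01 in series 3. Its fitted change was -0.08 without series 2, -0.10 without the nonpulsed and -0.27 without the blebbistatin array of that series, and -0.74 without series 3. A test for any difference between the 3 groups passed for 0 of 10 members and for 0.0109% of all rows.

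Slc7a5 varied with culture series. Adjusted for group, its fitted series effects were 0.35, -0.76, 0.00 and 0.41 log2 units around their mean in series 1, 2, 3 and 4. Series 2 was the low one, but not evenly over its arrays. Its pulsed arrays without and with blebbistatin were at 8.14 and 7.99. Its nonpulsed array was at 9.0, close to the 9.10 of the nonpulsed array of series 3. The F-test of the series terms passed for Slc7a5 (F = 12.7, limma adjusted p = 0.0424) and for 7.97% of all rows, and it did not pass for the other 9 members (adjusted p of 0.200 to 0.919). As shares of the total sum of squares, the series terms took 77.9% in Slc7a5 once group was allowed for, and the group terms took 9.65% once series was; in Shmt2 these were 28.7% and 68.2%, and the shares need not add up because the groups are unevenly spread over the series. The call held in 5 of 20 alternative analyses, with an adjusted p of 0.0182 to 0.251 over them. It was lost with quantile normalization (adjusted p = 0.0633), median centring (0.0586) and no filter (0.0738). It was lost when any of 8 of the 10 arrays was left out, and held without the nonpulsed array of series 2 or of series 3. Without series 2 the adjusted p was 0.251.

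The correlations between the members differed in sign. After the mean of each culture series was taken away, 30 of the 45 pairs of members had a positive Pearson correlation over the 10 arrays. The median was 0.34 and the range -0.77 to 0.92. Whether pairs of other genes on these arrays differ from this was not tested. These arrays share culture series and treatments, so the correlations describe them and carry no test. Taking the mean away also makes the arrays of series 1 mirror images, at 0.30 and -0.30 for Psat1. The same holds for series 4, at 0.11 and -0.11. The correlations thus rest on fewer separate values than arrays. Psat1 and Phgdh, neighbours in serine synthesis, had r = 0.92 (Spearman's rho 0.87), and r = 0.93 without series 1. Shmt2 and Mthfd2, neighbours in mitochondrial folate metabolism, had r = 0.68 (rho 0.67), and 0.89 without series 1. Between the pairs all 4 correlations were negative without series 1, at -0.63 for Psat1 and Mthfd2, -0.61 for Phgdh and Mthfd2, -0.50 for Psat1 and Shmt2 and -0.48 for Phgdh and Shmt2. Over all 10 arrays these were 0.20, 0.46, -0.26 and -0.10, so the sign or size of these values depends on series 1.

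The dimer partners Slc7a5 and Slc3a2 had r = -0.23 (rho 0.14), and r = -0.51 without series 1. Slc3a2 instead varied with Mthfd2 (r = 0.92, and 0.81 without series 1), Slc7a1 (0.88, and 0.78) and Asns (0.81, and 0.53). Slc38a2 ran against Phgdh (r = -0.77, and -0.73 without series 1) and Psat1 (-0.70, and -0.58). The correlations of Asns with Phgdh (0.87) and Mthfd2 (0.81) were 0.49 and 0.26 without series 1, where the nonpulsed and pulsed arrays differed most for these genes.

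**Figure D4:**
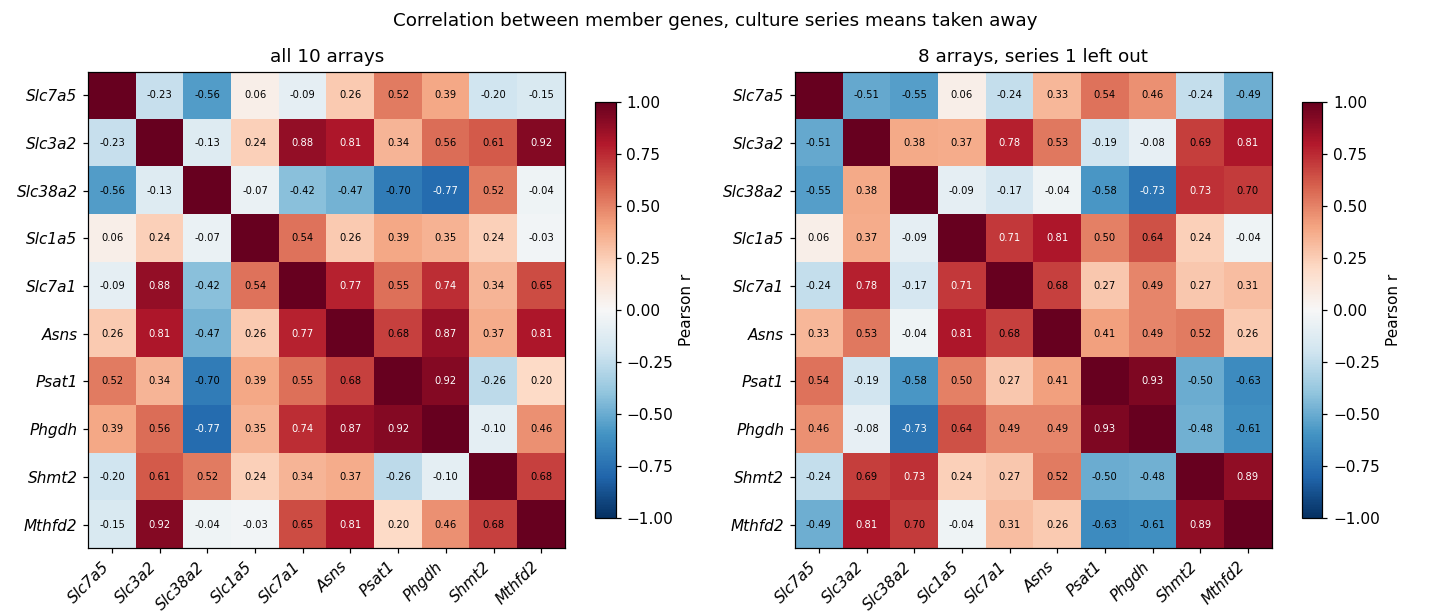
Pearson correlation (colour and number) between the 10 genes over arrays after the mean of each culture series was taken away, with all 10 arrays on the left and the 8 arrays of series 2 to 4 on the right. Psat1 with Phgdh stays at 0.92 and 0.93, and Shmt2 with Mthfd2 goes from 0.68 to 0.89.

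The other genes of these pathways were counted from fixed lists, in which 0 genes passed in any comparison. Of all rows tested, 62% were positive with pulsing and 55.7% with blebbistatin against pulsed. Of the 19 tested genes of serine, glycine and folate metabolism, 10 were positive and 9 negative with pulsing (median 0.01, against 0.05 over all rows), and 12 were positive and 7 negative with blebbistatin against pulsed (median 0.08, against 0.02). Psph, the phosphatase that ends serine synthesis, had log2 values of 9.29, 9.18 and 9.04 in nonpulsed and 8.60, 8.86, 9.01 and 8.69 in pulsed arrays. These ranges did not overlap, by as little as the difference between 9.01 and 9.04, which held for 7.34% of all rows. The change of Psph with pulsing was -0.32 (SE 0.14, limma adjusted p = 0.561). With blebbistatin its log2 values were 9.22, 8.89 and 8.68, and its change against pulsed was 0.14 (SE 0.14). Aldh1l2, a mitochondrial enzyme that releases the folate-bound carbon as carbon dioxide, had log2 values of 10.02, 9.42 and 9.48 in nonpulsed, 9.42, 9.09, 9.55 and 9.81 in pulsed, and 8.77, 8.79 and 9.62 in blebbistatin arrays. Aldh1l2 was thus on the side of Psat1, with changes of -0.32 with pulsing, -0.38 with blebbistatin against pulsed (adjusted p = 0.382) and -0.69 with both against nonpulsed (SE 0.16, adjusted p = 0.0880). The cytosolic Shmt1 had a change of 0.33 with blebbistatin (SE 0.13, adjusted p = 0.407), and Mthfd1 and Mthfd1l ones of 0.05 and 0.11.

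Of 27 further amino acid transporters, 15 were positive with pulsing (median 0.01) and 13 with blebbistatin (median -0.05). The shares of all rows that were positive were 62% and 55.7% in these comparisons. The cystine carrier Slc7a11 had changes of -0.12 and 0.11 in these comparisons (SE 0.31), and Slc1a4, a carrier of alanine, serine and cysteine, of -0.09 and 0.18 (SE 0.20). Among 16 enzymes of glutamine, glutamate, aspartate, proline and arginine metabolism, 7 were positive with pulsing (median -0.01) and 9 with blebbistatin (median 0.03). Glul, glutamine synthetase, had a change of 0.35 with pulsing (SE 0.12, adjusted p = 0.496) and differences of 0.66, 0.35 and 0.07 in series 1, 2 and 3. Got1, the cytosolic aspartate aminotransferase, had changes of 0.28 with pulsing and 0.33 with blebbistatin (SE 0.21), and Aldh18a1, which starts proline synthesis, of -0.24 and -0.05 (SE 0.15). Of 17 genes of branched-chain amino acid breakdown, 15 were positive with pulsing, with a median of 0.24 overall and of 0.62, 0.17 and 0.01 in series 1, 2 and 3. Of all rows 62% were positive with pulsing, and the heart muscle markers had a median of 0.26 overall and of 0.77, 0.17 and 0.00 in these series, whose part in the list's values was not tested. Bcat1, their cytosolic transaminase, went the other way at -0.30 (SE 0.27, adjusted p = 0.751).

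Of 27 genes of the ATF4 pathway, 19 were negative with pulsing (median -0.07) and 20 positive with blebbistatin against pulsed (median 0.11), again with 0 past the threshold. Of all rows, 62% were positive with pulsing and 55.7% with blebbistatin against pulsed. Ddit3, which encodes the stress factor CHOP, had log2 values of 9.0, 9.45, 9.77 and 9.37 in pulsed arrays and 10.40, 10.38 and 10.50 with blebbistatin. These ranges did not overlap, which held for 10.0% of all rows. The change of Ddit3 was 0.82 (SE 0.16, limma adjusted p = 0.199). Trib3, a pseudokinase induced by ATF4 and CHOP, was at 8.91, 8.62, 9.0 and 9.55 in pulsed and at 9.61, 9.56 and 10.05 in blebbistatin arrays, with a change of 0.69 (SE 0.12, adjusted p = 0.145). In the same comparison the 10 members, most of which ATF4 is known to raise, ranged from -0.20 (Psat1) to 0.39 (Mthfd2). Atf4 itself had a change of 0.17 (SE 0.09), Sesn2 of 0.18 (SE 0.09), Cebpb of 0.05 (SE 0.11), Chac1 of 0.10 (SE 0.14) and Pck2, the mitochondrial enzyme that makes phosphoenolpyruvate, of -0.20 (SE 0.13). With pulsing Chac1, an enzyme that degrades glutathione, was at -0.48 (SE 0.14, adjusted p = 0.495) and Pck2 at -0.30 (SE 0.13, adjusted p = 0.553). The pathway of mTORC1 and leucine sensing reads leucine brought in by LAT1. Of its 23 genes, 17 were positive with pulsing (median 0.05) and 19 with blebbistatin (median 0.11). Of 15 MYC pathway genes, 8 were positive in each of these comparisons (medians 0.03 and 0.00). The shares over all rows were 62% with pulsing and 55.7% with blebbistatin.

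The genes most like Asns over the 10 arrays, by Pearson r with series means taken away, were Nrp2 (0.98), Pitpna (0.97), Wars1 (0.97), Eif3c (0.97) and Psph (0.96). Without series 1 their correlations with Asns were 0.81, 0.87, 0.72, 0.79 and 0.92. Those most like Slc7a5 were Fbxo16 (0.99), Plcb1 (0.97), Rap1gds1 (0.97), Rps27l (0.96) and Rsu1 (0.96), a likeness that the wide spread of Slc7a5 within series 2 weighs on, where its 3 arrays lay at 0.62, -0.24 and -0.38 around their mean. They were picked as the highest of all named genes tested, so high values are built in.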

How the data were processed

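RNA was extracted with Trizol and labelled with biotin for Affymetrix arrays, per the labels' protocols. The authors deposited log2 values for each probe set. The submitters' processing notes name PLIER and Affymetrix Expression Console (version 1.1), with settings not given in the sources used here. That the base is 2 was inferred from the lowest values, which lie between 3.32 and 3.46 by array. At the lowest level there were 1990 to 2278 probe sets per array, none of them a member's.

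Of 31099 probe sets, 57 controls were left out, as were those with a mean over all arrays below 5.09 (the lowest 25%). The probe set with the highest mean stood for a gene with several, which gave 18393 rows. Treatment groups and culture series came from the titles, which give 4 pulsed arrays where the design text speaks of 3 per treatment. Limma 3.58.1 in R 4.3.3 (lmFit, eBayes, two-sided) was fitted on all 10 arrays with series as a fixed block, and p-values were adjusted by Benjamini-Hochberg over all rows, with a threshold of 0.05. The titles give dates, and arrays with the same date were taken as a culture series. Deviations of same-series arrays from their group means had r of 0.347 to 0.640 in 8 pairs. In 25 pairs of different series and group r was -0.583 to 0.494, so the ranges overlapped. Nothing says that arrays of a group came from different animals. With series as a fixed block, p-values rest on the spread left once group and series are allowed for. For treatments this is how far their differences varied from series to series, and not a known spread between animals. The genes and lists, and the genes named from them, were chosen with earlier results of these data known. Named list genes were a fixed set plus any that passed, and likeness was ranked by Pearson r to Asns and Slc7a5. Pycr1 was not analysed here. Alternatives covered the block (a random block used statmod 1.5.0), scaling, filter, probe set rule and left-out arrays or series. The procedure was tested on simulated data with planted changes larger than any change of a member here. That test does not show whether changes of the members' size would be found. Promoter windows came from RefSeq, build GRCr8.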

Additional observations from a re-analysis of the deposited data

How the results depend on the processing

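In all 23 alternatives 0 of the 10 members passed in any of the 3 comparisons of treatments, and the lowest adjusted p of a member was 0.0947. Of 690 member changes under alternatives, 654 kept their direction and 36 changed sign, all of them without a call. The replicate block changed no call of a member. Without it Slc1a5 with blebbistatin against pulsed was -0.03, and over all rows 1 gene was called in that comparison and 30 against nonpulsed, while a random replicate block gave 7 and 1020, and 86 for any difference between groups. With only the groups compared, in series that held both, 0 and 2 genes were called, Slc7a1 was -0.04 and 0.13 in the blebbistatin comparisons, and the members' median against nonpulsed was 0.06. Median centring put Slc3a2 at -0.02 against nonpulsed with blebbistatin, and the mean of probe sets put Slc7a1 at -0.02. For differences between groups quantile normalization called 1 gene, no filter 0 (0 and 1 in the blebbistatin comparisons) and a stricter filter on low values 14 (and 6 with blebbistatin), and testing every probe set called 110 against nonpulsed. The Slc7a5 series call was lost (0 members) with quantile normalization, median centring and no filter.

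Leaving out single arrays or series, counts of genes called ranged from 0 to 30 with blebbistatin against pulsed, from 0 to 46 against nonpulsed, from 0 to 29 for groups and from 13 to 1469 for series, and members called for series from 0 to 1. The changes that turned sign ranged as follows. With pulsing these were Slc3a2 from -0.15 to 0.10, Slc7a1 from -0.24 to 0.06 and Mthfd2 from -0.40 to 0.17. With blebbistatin against pulsed they were Slc7a5 from -0.25 to 0.03, Slc1a5 from -0.24 to 0.21 and Slc7a1 from -0.20 to 0.25. With blebbistatin against nonpulsed they were Slc3a2 from -0.10 to 0.17, Slc7a1 from -0.37 to 0.05, Mthfd2 from -0.02 to 0.43 and Slc1a5 from -0.49 to 0.03. The cause of these shifts was not tested. The members' median ranged from -0.26 to -0.05 with pulsing, and among changes that kept their sign Slc7a5 ranged from -0.56 to -0.02, Asns from -0.35 to -0.07, Phgdh from -0.35 to -0.09 and Psat1 from -0.44 to -0.16. Against nonpulsed with blebbistatin Slc7a5 ranged from -0.74 to -0.08. No member was at the lowest level on any array.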
